A study of Mus musculus with 36 samples.

Results

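The core circadian clock was described here through 10 genes: Clock and Arntl (also called Bmal1), Per1, Per2, Per3, Cry1 and Cry2, Nr1d1 and Nr1d2, and Dbp. They were listed by name, with earlier results of these data already known. All 10 were found among the 49315 genes of the deposited count files. The cells were C2C12, an established line of mouse myoblasts, kept in proliferation on coverslips inside sealed experiment units. Polyadenylated RNA was sequenced from 18 libraries, 3 in each of 6 groups. In space without gravity, in space with gravity and on land, cells either received no nanoceria or had 100 µg/ml of serum-coated nanoceria (cerium oxide nanoparticles, which take up and release electrons in redox reactions) in a medium reservoir of the unit. No group carried a transgene or deletion, and all groups derived from the same line. The terms with and without gravity are those of the labels. The incubator was set at 37 °C, the last fluid steps fell on day 9 after launch, and the cells were preserved in RNAlater. The land groups were cultured in a later run that repeated the time and temperature course of the flight, and effects of the flight and of the run therefore cannot be told apart. The series also lists 18 small RNA samples, which were not analysed here.

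The molecular clock is a feedback loop of transcription. CLOCK and ARNTL bind DNA together at E-box sequences and switch on the Per and Cry genes, whose proteins return to the nucleus and hold CLOCK and ARNTL back. In a second loop the nuclear receptors encoded by Nr1d1 and Nr1d2 (REV-ERB alpha and beta), themselves switched on through E-boxes, repress Arntl at elements that are shared with the activating ROR receptors. DBP is a transcription factor that carries the rhythm to D-box sequences in output genes. Muscle cells hold such a clock of their own, and in culture the clocks of single cells drift apart unless a medium change, a temperature step or a hormone sets them together. Each library here is a single point in time and the hour of the clock at fixation was not given, so a shift of phase and a change of level cannot be told apart. In bulk RNA, fewer cells of a kind and less RNA per cell cannot be told apart either.

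The promoters of 5 of the genes are printed as examples that hold matches to elements of these loops. They come from the RefSeq promoter table for GRCm38.p6 (250 bases before to 50 bases after a start site, in the gene's direction), in which 9 of the 10 genes had an entry. Capitals mark matches on either strand to 5 motifs, which are the E-box CACGTG, the E-prime box CACGTT, the D-box TTATGNAA, the general consensus of the ROR and REV-ERB element (RORE) and its core AGGTCA, which most forms of the RORE contain. A match is a description of letters and not a measured binding site.
Nr1d2, chr14:18239057-18239356, minus strand: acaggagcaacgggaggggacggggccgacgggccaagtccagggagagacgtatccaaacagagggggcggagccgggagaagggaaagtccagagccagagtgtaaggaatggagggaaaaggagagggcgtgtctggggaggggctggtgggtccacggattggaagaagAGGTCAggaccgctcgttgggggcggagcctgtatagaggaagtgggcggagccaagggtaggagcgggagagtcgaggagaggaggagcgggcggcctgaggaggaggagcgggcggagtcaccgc
Arntl, chr7:113207261-113207560, plus strand, the later of 2 listed start sites: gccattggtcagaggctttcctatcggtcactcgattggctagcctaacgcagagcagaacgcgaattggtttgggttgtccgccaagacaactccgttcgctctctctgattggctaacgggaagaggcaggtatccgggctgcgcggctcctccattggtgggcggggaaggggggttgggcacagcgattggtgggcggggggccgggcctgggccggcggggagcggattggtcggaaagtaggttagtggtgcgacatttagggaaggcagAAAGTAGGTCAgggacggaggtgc
Cry1, chr10:85185005-85185304, minus strand: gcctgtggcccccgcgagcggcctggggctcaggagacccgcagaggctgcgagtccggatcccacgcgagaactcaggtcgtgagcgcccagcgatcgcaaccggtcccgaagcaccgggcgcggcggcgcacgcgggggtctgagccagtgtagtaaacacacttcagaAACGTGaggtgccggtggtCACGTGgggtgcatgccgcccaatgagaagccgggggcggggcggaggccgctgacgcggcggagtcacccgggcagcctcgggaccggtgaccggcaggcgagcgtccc
Per1, chr11:69098699-69098998, plus strand, the earlier of 2 listed start sites: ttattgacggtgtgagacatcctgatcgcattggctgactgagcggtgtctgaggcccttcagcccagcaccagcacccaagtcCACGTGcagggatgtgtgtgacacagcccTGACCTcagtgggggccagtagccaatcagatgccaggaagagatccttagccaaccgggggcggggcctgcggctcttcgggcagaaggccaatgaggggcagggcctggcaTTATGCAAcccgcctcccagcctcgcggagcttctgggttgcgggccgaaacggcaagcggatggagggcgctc
Per3, chr4:151044616-151044915, minus strand: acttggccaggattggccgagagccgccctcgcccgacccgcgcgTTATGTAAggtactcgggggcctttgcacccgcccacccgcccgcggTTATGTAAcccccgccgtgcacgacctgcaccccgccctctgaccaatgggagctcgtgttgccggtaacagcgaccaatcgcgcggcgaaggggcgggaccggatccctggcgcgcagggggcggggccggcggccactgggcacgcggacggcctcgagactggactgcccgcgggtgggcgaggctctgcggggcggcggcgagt
The Arntl window held 1 match to that RORE consensus, 26 bases after the start site, and that match contains the AGGTCA core. The RORE consensus was found in 126 of 32851 promoter windows of the table, or 0.384%. The Cry1 window held an E-box and, on the other strand, an E-prime box, which were present in 7.15% and 4.68% of all windows. The Per1 window held an E-box, an AGGTCA core on the other strand and a D-box, and the Per3 window held 2 D-boxes, an element present in 3.38% of all windows. The Nr1d2 window held 1 AGGTCA core, a sequence present in 16.3% of windows, and no E-box or E-prime box. Among the windows not printed, Cry2 and Nr1d1 each held 1 E-prime box and 1 of the 3 Clock windows held an AGGTCA core. The Dbp window, the later Per1 window, the earlier Arntl window and the other Clock windows held no match. Per2 had no entry. The cyclic AMP response element TGACGTCA, present in 1.79% of windows, was in none of the members' windows.

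Of the 18 libraries, 17 held between 2986628 and 11378178 counts, while replicate 3 of space with gravity and nanoceria held 23858 counts over 4880 genes. In that library 3 counts stand for 35.7 CPM (counts scaled to 1000000 by the library's effective size), and its member values rest on 0 to 3 counts each. In the other 17 libraries 3 counts stand for 0.193 to 1.11 CPM. A set of 6 dominant genes took 52.3% ± 10.2 of all counts in space without gravity, 33.9% ± 11.1 in space with gravity and 65.5% ± 9.88 on land (mean ± SD, n = 6 each), so the depth left for other genes differed between regimes. Among the myoblast markers, Myf5 and Des were counted in all 18 libraries, whereas Myod1 was at 0 in 8 libraries and never above 34 counts, and Msc was at 0 in 17. Markers of fused myotubes summed to between 0.659 and 17.8 CPM in 17 libraries and to 87.5 CPM in replicate 1 of land without nanoceria. The summed level of the myoblast markers was 259 to 545 CPM in land with nanoceria and 71.5 to 246 CPM in the other groups. Of 6 fibroblast and adipocyte markers, Lum and Adipoq were at 0 in every library, Dcn and Pparg were at 0 in 1 library each, Pdgfra in 2 and Fabp4 in 11. Their summed level was 9.83 to 15.4 CPM in land without nanoceria and 0 to 8.05 CPM in the other groups. The part of these markers in the differences from land was not tested.

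Levels of different genes were compared as CPM per kilobase of exon over the 17 larger libraries, where the median of all 11558 tested genes was 1.76. Nr1d2 was the highest of the 10, with a median of 3.19 CPM per kilobase and a range of 1.76 to 13.3. It was followed by Nr1d1 at 2.08, Dbp at 1.85, Cry1 at 1.55, Clock at 1.48 and Per3 at 1.32 CPM per kilobase. Cry2 stood at 0.717, Arntl at 0.416, Per1 at 0.352 and Per2 at 0.0873 CPM per kilobase, and the last of these exceeded the level of 2.95% of the tested genes. The order depends on division by exon length. Before that division Clock had the highest median, 20.3 CPM, against 15.9 CPM for Nr1d2. Neighbours in the order per kilobase often changed places between libraries. Nr1d2 exceeded Nr1d1 in 14 of 17 libraries, Nr1d1 exceeded Dbp in 9, Dbp exceeded Cry1 in 12, Cry1 exceeded Clock in 9 and Clock exceeded Per3 in 12. Per3 exceeded Cry2 in 10, Cry2 exceeded Arntl in 13, Arntl exceeded Per1 in 6 and Per1 exceeded Per2 in 14. The spread between replicates also differed. The biological coefficient of variation fitted by edgeR had a median of 0.711 over the 10 genes against 0.591 over all tested genes. The sets were not matched for level, so the medians do not show that clock genes varied more than genes of like level. Among the 10, Nr1d2 was lowest at 0.399, Nr1d1 next at 0.460 and Per3 highest at 1.18.

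**Figure D1:**
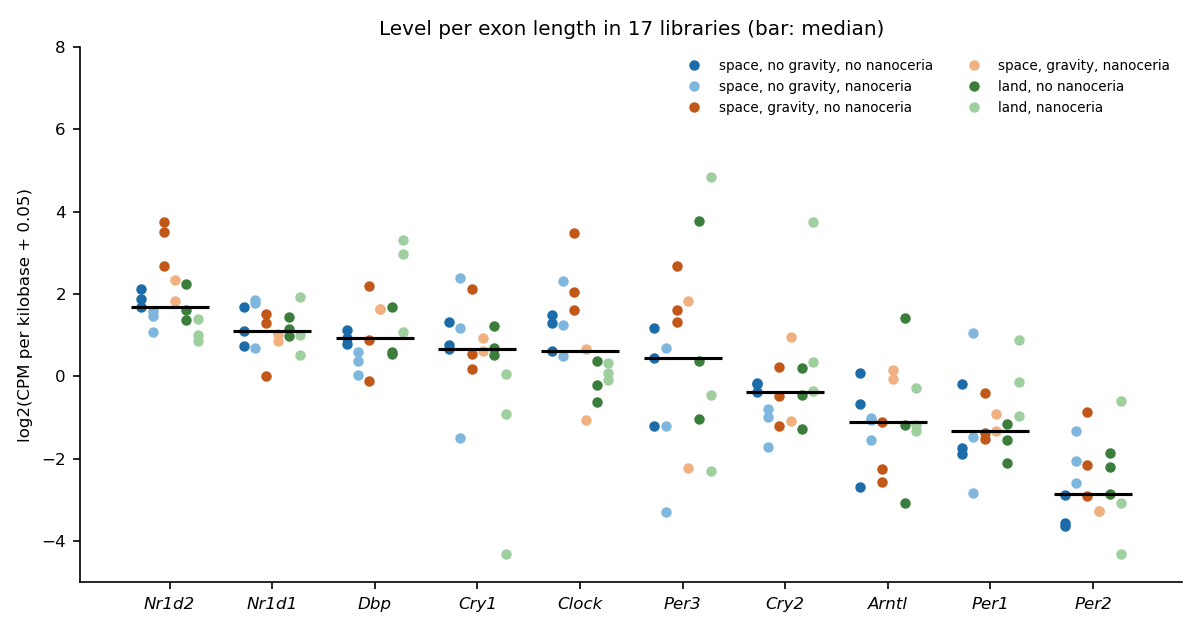
Level of each core clock gene on the scale log2(CPM per kilobase of exon + 0.05) in the 17 larger libraries, coloured by group, with the median as a bar. Nr1d2 sits highest with a median of 3.19 CPM per kilobase, Per2 lowest at 0.0873, and Per3 spreads over a 546-fold range.

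Across the study's comparisons, Nr1d2 was the 1 clock gene that passed the test for a named comparison, and it was higher in space with gravity than on land. The test was edgeR's quasi-likelihood test with Benjamini-Hochberg adjustment over all 11558 genes tested, all 10 clock genes among them, and the threshold was an adjusted p of 0.05. Between space with gravity and land, averaged over nanoceria, 1 of 10 clock genes was called, while 14% of all tested genes were called, 7.22% higher and 6.74% lower. Between space without gravity and land, 0 of 10 were called against 5.25% of all tested genes (2.81% higher and 2.44% lower), with 4 of 10 at an unadjusted p under 0.05 where the background was 24.7%. For nanoceria averaged over the 3 regimes, and for space without gravity against space with gravity, 0 of 10 clock genes and 0% of all tested genes were called by edgeR, and DESeq2 called 0 of 10 in each. At an unadjusted p under 0.05 each of these 2 comparisons held 1 clock gene, Nr1d2, against backgrounds of 6.54% and 5.85%. A test for any difference among the 6 groups called 2 of 10, Clock and Nr1d2, with 2.08% of tested genes called. At an unadjusted p under 0.05 that test held 4 of 10, with Cry2 and Dbp added, beside a background of 22.3%. A test of whether the nanoceria effect differed between regimes called 0 of 10 and 0% of tested genes, with Clock and Cry2 at an unadjusted p under 0.05 beside a background of 6.14%.

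**Figure D2:**
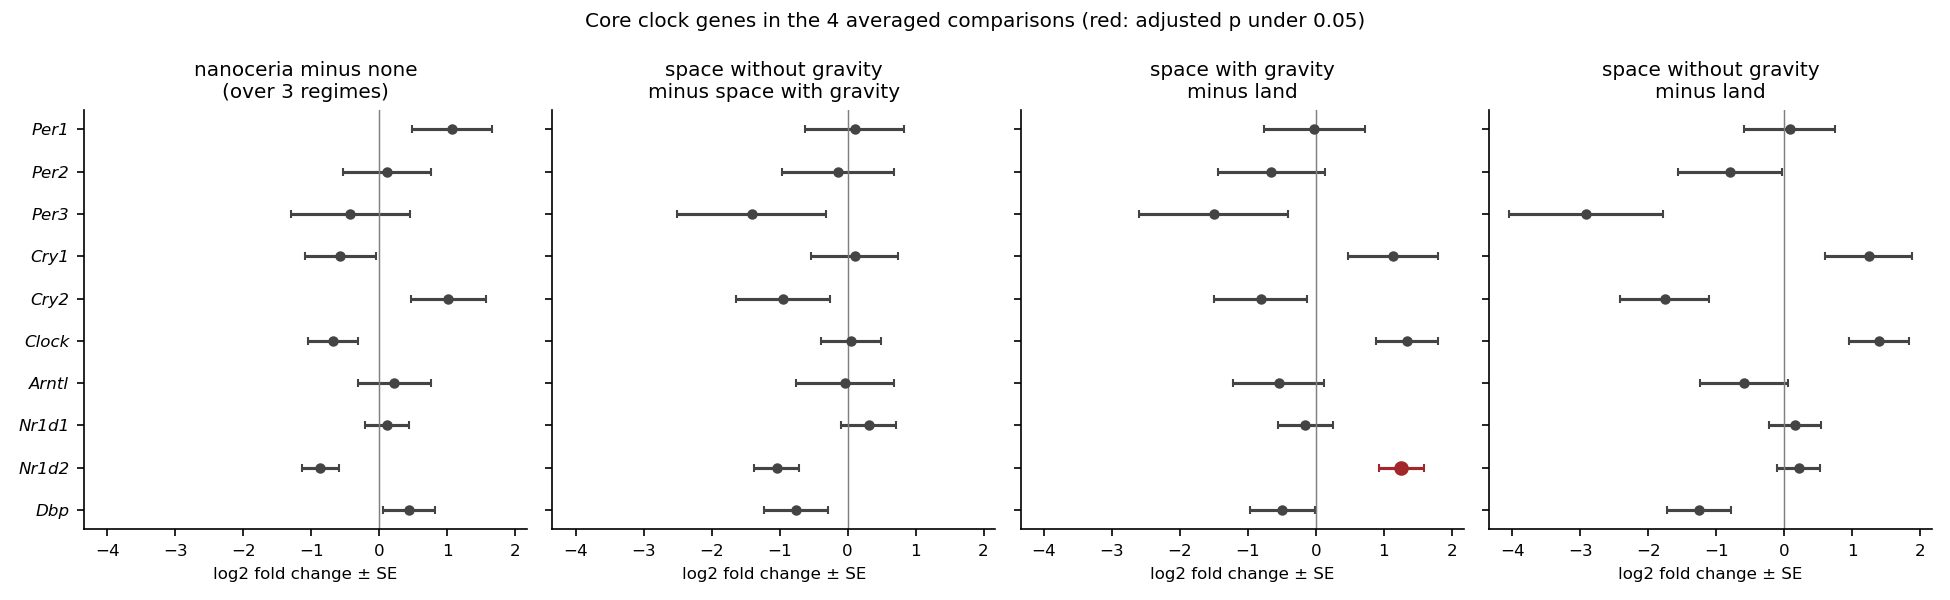
Log2 fold change with its standard error for the 10 clock genes in the 4 averaged comparisons, each titled with the first group minus the second. Nr1d2 in space with gravity against land (1.26 ± 0.33) is the value in red, past the adjusted threshold.

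Nr1d2 encodes REV-ERB beta, a haem-binding repressor of Arntl, and lies at chr14:18204054-18239127 on the minus strand, with 5001 bases of exon. In space with gravity it stood at 31.8, 66.6 and 56.5 CPM without nanoceria (replicates 1 to 3) and at 24.9, 17.7 and 11.9 CPM with it, the last from 1 count. On land the values were 15.2, 12.8 and 23.3 CPM without nanoceria and 12.96, 9.82 and 8.79 CPM with it. In space without gravity they were 18.05, 15.9 and 21.6 CPM without nanoceria and 13.5, 10.4 and 14.9 CPM with it. The 3 libraries of space with gravity without nanoceria were thus the highest of the 18, and they did not overlap with any other group. By pairs, 15.7% of tested genes in that group lay above untreated land without overlap. Above its nanoceria counterpart, which includes the smallest library, the share was 8.46%, and above untreated space without gravity 5.98%. The share above all other groups was not counted. The levels in space without gravity and on land overlapped.

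Averaged over nanoceria, Nr1d2 was 2.39-fold higher in space with gravity than on land (log2 fold change 1.26 ± 0.33 SE, edgeR adjusted p = 0.0206). The edgeR F-test for any difference among the 6 groups gave an adjusted p of 0.0410, and 0.0527 with DESeq2 size factors. Without nanoceria the log2 fold change of space with gravity over land was 1.60 ± 0.46, and with nanoceria it was 0.91 ± 0.47, with edgeR adjusted p-values of 0.0901 and 0.284. In groups of 3 without nanoceria, 15.7% of all tested genes were likewise higher in space with gravity than on land with no overlap. The call was lost with DESeq2 size factors (0.92, adjusted p = 0.0551), with no filter on low counts (1.35, 0.0771), with the compared groups alone (1.24, 0.0681) and with the share of dominant genes as a covariate (1.00, 0.476). It was also lost without replicate 2 of space with gravity and no nanoceria (1.17, edgeR adjusted p = 0.0563). The same held without replicate 1 of space with gravity and nanoceria (1.12, 0.0792). Leaving out replicate 1 or 2 of land without nanoceria lost it too (1.23, 0.0513 and 1.20, 0.0567). The call was kept in the other 8 of 12 refits that left out a library. The dominant share itself differed between the compared regimes (33.9% in space with gravity, 65.5% on land). Its part as a covariate therefore cannot be told apart from the comparison.

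**Figure D3:**
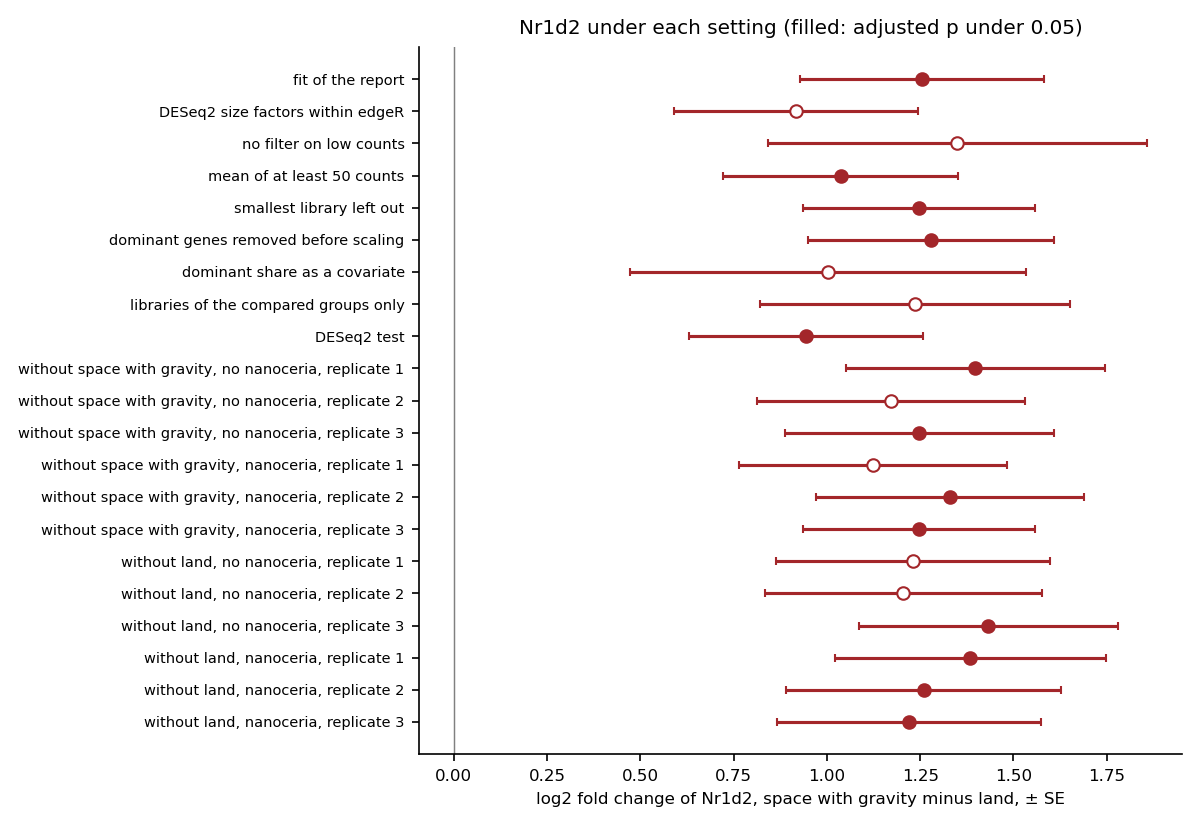
Log2 fold change of Nr1d2 in space with gravity minus land, with its standard error, under the reported fit and each alternative. Filled points are past an adjusted p of 0.05, and all values lie above 0, between 0.92 and 1.43.

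Nr1d2 also had the smallest unadjusted p of the 10 genes in the nanoceria and the gravity comparisons, which share libraries with the one above. With nanoceria its log2 fold change averaged over regimes was -0.86 ± 0.27 (edgeR adjusted p = 0.723). Within regimes it was -0.51 ± 0.45 in space without gravity, -1.38 ± 0.48 in space with gravity and -0.70 ± 0.46 on land. The nanoceria libraries lay below all untreated ones in both space regimes, as did 4.65% of tested genes without gravity and 8.46% with gravity. The second share involves the smallest library, where a gene at 0 could lie below the untreated group but not above it. The value of Nr1d2 in that library came from 1 count. The 2 land groups overlapped. For space without gravity against space with gravity the averaged log2 fold change of Nr1d2 was -1.04 ± 0.33 (edgeR adjusted p = 0.606). Neither comparison passed the adjusted threshold.

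Nr1d1 encodes REV-ERB alpha, the paralog with the same role, and lies at chr11:98767932-98775333 on the minus strand. Over the larger libraries it had the narrowest range of the 10 genes, 3.87-fold from lowest to highest. Values in space without gravity were 5.01, 9.73 and 6.42 CPM without nanoceria and 10.9, 4.83 and 10.5 CPM with it. Values in space with gravity were 7.48, 8.59 and 2.96 CPM without nanoceria and 6.18, 5.42 and 11.9 CPM with it, the last from 1 count. On land it was 6.74, 5.88 and 8.22 CPM without nanoceria and 11.5, 6.01 and 4.23 CPM with it. All 6 groups overlapped, and the test for any difference among them gave an edgeR adjusted p of 0.975. The log2 fold change of space with gravity over land was -0.15 ± 0.40, and whether the 2 paralogs differed in that response was not tested. Exons of Nr1d1 share 263 bases (8.55%) with the opposite-strand gene Thra, which had 3499 counts over all libraries against 786 for Nr1d1. The use of strand in counting was not given in the sources used here, so reads from that stretch cannot be assigned.

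Clock, the histone acetyltransferase and DNA-binding partner of ARNTL, lies at chr5:76209868-76304792 on the minus strand with 13727 bases of exon. On land it stood at 11.2, 8.18 and 17.1 CPM without nanoceria and 12.2, 13.8 and 16.6 CPM with it. Space without gravity gave 33.3, 20.3 and 37.8 CPM without nanoceria and 67.3, 31.9 and 18.6 CPM with it. Space with gravity gave 56.4, 41.2 and 153 CPM without nanoceria, and at 21.1, 5.90 and 11.9 CPM with it, the last from 1 count. All 6 libraries of space without gravity were above all 6 land libraries, which 1.23% of tested genes also showed. In space with gravity the untreated libraries were above land while the nanoceria libraries spanned the land range. Above untreated land alone, 15.7% of tested genes in that untreated group also lay without overlap. The share above both land groups was not counted.

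Clock differed among the 6 groups (edgeR F-test, adjusted p = 0.0496), and no single comparison passed. The log2 fold change over land was 1.40 ± 0.44 in space without gravity (edgeR adjusted p = 0.0676) and 1.34 ± 0.45 in space with gravity (adjusted p = 0.0552). Without nanoceria, space with gravity was 2.78 ± 0.65 above land on the log2 scale (adjusted p = 0.0667), and with nanoceria the difference was -0.09 ± 0.66. Nanoceria in space with gravity gave -2.64 ± 0.69 (edgeR adjusted p = 0.981), while in space without gravity and on land it gave 0.37 ± 0.61 and 0.23 ± 0.62. The test of whether these nanoceria effects differed gave an edgeR adjusted p of 0.728. The F-test call was lost without the smallest library (adjusted p = 0.0520). The averaged comparison with land in space with gravity passed without replicate 2 of its nanoceria group (1.61, adjusted p = 0.0376) or replicate 3 of land without nanoceria (1.54, adjusted p = 0.0488), and it was 0.19 with the dominant share added to the model (adjusted p = 0.965).

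Arntl, the partner of CLOCK in the activator and the target of the second loop, lies at chr7:113207465-113314126 on the plus strand, and its level was low. Arntl in space without gravity was 0.802, 4.36 and 7.66 CPM without nanoceria and 3.35, 2.23 and 3.22 CPM with it. Arntl in space with gravity was 0.903, 1.20 and 3.13 CPM without nanoceria and 6.81, 7.97 and 11.9 CPM with it, the last from 1 count. On land it was 2.95, 0.511 and 19.7 CPM without nanoceria and 2.96, 2.60 and 5.86 CPM with it. The nanoceria libraries of space with gravity lay above the untreated ones, as did 1.28% of tested genes. They also lay above the nanoceria libraries of space without gravity, a pattern of 1.7% of tested genes. Both shares are limited by the smallest library, which belongs to this group and held counts for 4880 genes. A gene at 0 there could not lie above another group, so the shares do not show that the pattern is rare. The nanoceria difference in space with gravity was 2.20 ± 0.99 on the log2 scale (edgeR adjusted p = 1), and the averaged nanoceria effect was 0.22 ± 0.54. In the untreated groups the log2 fold change of space with gravity over land was -2.15 ± 0.94 (edgeR adjusted p = 0.198). Of the 83 Arntl counts on land without nanoceria, 60 came from replicate 3.

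The ratio of the repressor to its target within a library does not depend on scaling between libraries. The log2 ratio of Nr1d2 to Arntl counts was 4.14, 5.09 and 5.74 (lowest, median and highest) in space with gravity without nanoceria and 0, 1.14 and 1.87 with nanoceria. On land it was 0.241, 2.34 and 4.34 without nanoceria, and in space without gravity 1.48, 1.85 and 4.33. The ratio of Clock to Arntl was 5.05, 5.57 and 5.92 in space with gravity without nanoceria and -0.429, 0 and 1.62 with it. The 2 groups of space with gravity did not overlap in either ratio. That follows from the levels given above and is no further result. In space with gravity, Nr1d2 and Clock were lower with nanoceria without overlap, as were 8.46% of tested genes. Arntl was higher without overlap, as were 1.28% of tested genes. Both shares are affected by the smallest library. The share of gene pairs whose ratios did not overlap was not counted. The untreated groups of all 3 regimes overlapped in the ratio of Nr1d2 to Arntl. With nanoceria, the value of 0 in each ratio came from the smallest library, with 1 count of each gene, so the other 2 libraries gave 1.14 and 1.87 for Nr1d2 to Arntl and -0.429 and 1.62 for Clock to Arntl.

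**Figure D4:**
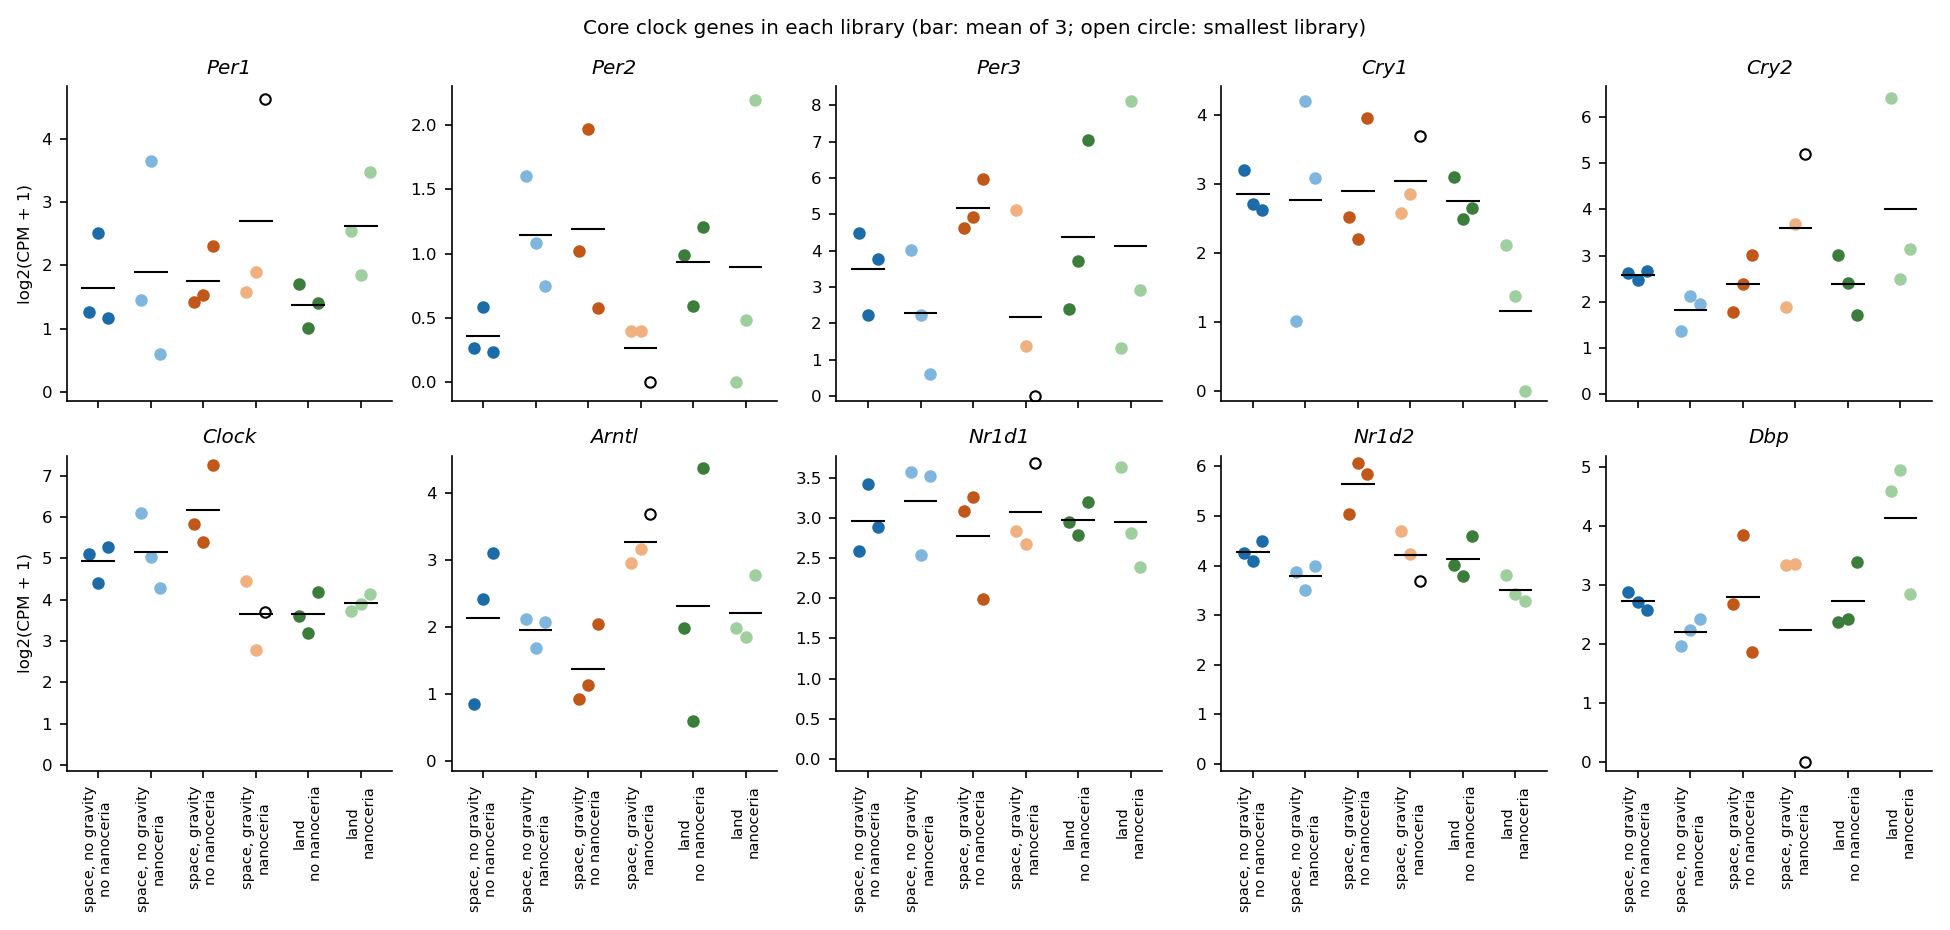
Level of each core clock gene as log2(CPM + 1) in all 18 libraries, by group, with the mean of 3 libraries as a bar and the smallest library as an open circle. Nr1d2 stands highest in space with gravity without nanoceria, Clock stands lowest on land among the untreated groups, and Per3 and Cry2 each have single libraries far above the rest of their group.

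Among the Per genes, the inhibitory partners of CRY and targets of the E-box, no comparison was called and single libraries carried most of the signal. Per3, at chr4:151003652-151044665 on the minus strand, had 1385 of its 1409 counts in land with nanoceria (98.3%) in replicate 2. In CPM, that group held 1.48, 277 and 6.51, and the untreated land group held 4.21, 12.02 and 131. Space with gravity held 23.7, 29.1 and 61.4 CPM without nanoceria and 33.7, 1.59 and 0 CPM with it. Space without gravity held 21.3, 3.69 and 12.7 CPM without nanoceria and 15.1, 3.71 and 0.508 CPM with it. The untreated group of space with gravity was the one in which the 3 libraries shared the counts most evenly, with 34.5% in the highest.

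The sign of a Per3 difference depended on those libraries. Over the larger libraries the median was 29.1 CPM in space with gravity, 8.18 in space without gravity and 9.26 on land, yet the fitted log2 fold change of space with gravity over land was -1.50 ± 1.10, and without replicate 2 of land with nanoceria it was 0.82. Space without gravity over land gave -2.91 ± 1.13 (edgeR adjusted p = 0.122), and -0.60 without that same land library or -1.59 without replicate 3 of land without nanoceria. DESeq2 called this last comparison (-3.16, adjusted p = 0.0372), as did edgeR with no filter on low counts (-2.88, adjusted p = 8.62e-06). Untreated libraries of space without gravity lay below those of space with gravity for Per3, Clock and Nr1d2, as did 5.98% of tested genes, and 0 of 10 clock genes lay above them beside 6.35%.

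Per1, at chr11:69095217-69109960 on the plus strand, is the fast-responding Per gene, induced rapidly by serum, hormones and cyclic AMP. Its counts ran from 3 to 31 in the larger libraries, with a median level of 1.58 CPM in space without gravity, 1.98 in space with gravity and 2.43 on land. On land it stood at 2.25, 1.02 and 1.64 CPM without nanoceria and at 4.81, 2.60 and 10.1 CPM with it, 2 groups that did not overlap, as was so for 3.70% of tested genes in that direction. The land difference with nanoceria was 1.79 ± 0.99 on the log2 scale (edgeR adjusted p = 0.552) and the averaged one 1.07 ± 0.59 (adjusted p = 0.775). Per2, at chr1:91415982-91459324 on the minus strand, had 0 to 34 counts in every library and was at 0 in replicate 1 of land with nanoceria and in the smallest library. In space without gravity it stood at 0.201, 0.503 and 0.178 CPM without nanoceria and at 2.04, 1.11 and 0.677 CPM with it, from 1 to 14 counts, 2 groups that did not overlap, as for 3.4% of tested genes in that direction. Its levels by regime overlapped, and its log2 fold change over land was -0.66 ± 0.79 in space with gravity and -0.80 ± 0.77 in space without gravity.

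Cry1 and Cry2 encode the cryptochromes, which bind CLOCK and ARNTL directly and are the stronger repressors of the loop. Cry1, at chr10:85131700-85185064 on the minus strand, stood at 8.22, 5.54 and 5.17 CPM in space without gravity, 4.71, 3.61 and 14.5 CPM in space with gravity and 7.58, 4.60 and 5.26 CPM on land, all without nanoceria. With nanoceria it stood at 1.02, 17.4 and 7.45 CPM, then 4.99, 6.22 and 11.9 CPM (the last from 1 count), and on land at 3.33, 1.60 and 0 CPM. The land libraries with nanoceria were therefore below those without it, a pattern shared by 6.41% of tested genes, and they rested on 9, 8 and 0 counts. The land difference was -1.84 ± 0.94 on the log2 scale (edgeR adjusted p = 0.514). With nanoceria, space without gravity was 2.37 ± 0.95 above land (edgeR adjusted p = 0.187).

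Cry2, at chr2:92403646-92434043 on the minus strand, ran against Cry1 on land, and there 1 library held most of it. Land with nanoceria held 84.4, 4.61 and 7.81 CPM, in which replicate 1 gave 228 of 275 counts (82.9%), and land without it held 7.02, 4.35 and 2.30 CPM. Space without gravity held 5.21, 4.53 and 5.35 CPM without nanoceria and 1.60, 3.34 and 2.88 CPM with it. Space with gravity held 2.45, 4.21 and 7.08 CPM without nanoceria and 2.69, 11.96 and 35.7 CPM with it, the last from 3 counts. The other land libraries overlapped with both space regimes. With nanoceria, space without gravity was below land in every library, as were 10.1% of tested genes (-3.64 ± 0.99, edgeR adjusted p = 0.0898). Averaged over nanoceria that difference was -1.76 ± 0.66 (adjusted p = 0.110), and -0.53 (adjusted p = 0.555) without replicate 1 of land with nanoceria. It was called by DESeq2 (-2.01, adjusted p = 0.0270) and by edgeR with no filter on low counts (-1.69, adjusted p = 0.0321).

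Dbp, the D-box activator whose transcript has among the widest daily swings in liver and muscle, lies at chr7:45705088-45710203 on the plus strand. Land with nanoceria held 23.3, 29.9 and 6.18 CPM against 4.21, 4.35 and 9.53 CPM without it. Space without gravity held 6.42, 5.54 and 4.99 CPM without nanoceria and 2.91, 3.71 and 4.40 CPM with it. Space with gravity held 5.42, 13.5 and 2.63 CPM without nanoceria and 9.19, 9.25 and 0 CPM with it, the last from the smallest library. Of the 18 libraries, 2 of land with nanoceria were thus the highest, and in space without gravity the nanoceria libraries lay below the untreated ones, as did those of Cry2 and Nr1d2 and 4.65% of all tested genes. The nanoceria difference on land was 1.73 ± 0.67 on the log2 scale (edgeR adjusted p = 0.385) and that in space without gravity was -0.62 ± 0.66. Space without gravity against land gave -1.25 ± 0.47 averaged over nanoceria (edgeR adjusted p = 0.110), which DESeq2 called (-1.47, adjusted p = 0.0285). Dbp exons share 539 bases (18.01%) with the opposite-strand gene Sphk2, which had 435 counts over all libraries against 887 for Dbp.

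In the 9 comparisons of single groups, 3 libraries against 3, edgeR called none of the 90 values of the 10 clock genes, and called 1 of the 11558 tested genes (0.00865%) in space with gravity against land with nanoceria, 5 (0.0433%) in space without gravity against land with nanoceria, and 0% in the other 7. At an unadjusted p under 0.05 there were 17 of 90 values: 6 of Clock, 3 of Nr1d2, 2 each of Arntl, Cry2 and Dbp, and 1 each of Cry1 and Per3. The comparison with the most was space without gravity against land with nanoceria, with 5 of 10 beside a background of 19.2%, and nanoceria in space without gravity had 0 of 10 beside 3.97%. For nanoceria there were 3 of 10 in space with gravity (background 4.46%) and 2 on land (10.2%). Gravity withdrawn in space gave 2 of 10 without nanoceria (4.05%) and 1 with it (5.78%). Space with gravity against land gave 3 of 10 without nanoceria (21.5%) and 0 with it (20.5%), and space without gravity against land gave 1 of 10 without nanoceria (13%). Over the 10 genes the median log2 fold change was -0.32 in space with gravity against land and -0.25 in space without gravity against land, where all tested genes had -0.04 and -0.02. For nanoceria it was 0.12 against -0.03, and for gravity withdrawn in space -0.09 against 0.04. Scaling by DESeq2 size factors moved the median of all genes to -0.39 in the first of these and lowered the share of called genes that were higher in space from 51.7% to 28.7%. With those size factors Nr1d2, Per1 and Nr1d1 changed sign in space without gravity against land.

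Genes around the core loop were counted in 5 further lists. Of 11 paralogs and second-loop regulators, 7 passed the filter on low counts and 1 was called, Rora, which encodes the ROR alpha receptor that opposes the REV-ERB proteins at the RORE. In space with gravity Rora stood at 82.7, 66.5 and 9.39 CPM without nanoceria and 30.6, 9.40 and 107 CPM with it (the last from 9 counts), and on land at 13.9, 8.69 and 3.94, then 7.77, 10.0 and 14.3 CPM. It was 2.21 ± 0.72 higher than on land on the log2 scale (edgeR adjusted p = 0.0496). In space without gravity the log2 fold change over land was 2.45 ± 0.70 (edgeR adjusted p = 0.0503). That value passed the threshold with no filter on low counts (adjusted p = 0.00013), without the smallest library (0.0425), with the dominant genes removed (0.0492), with the compared groups alone (0.0473) and with DESeq2 (0.0166), and in 2 of 12 refits without a library, those without replicate 2 of either group of space without gravity (0.0367 and 0.0371). It was 0.86 (adjusted p = 0.654) with the dominant share as a covariate. The call in space with gravity was lost without the smallest library (1.66, adjusted p = 0.0998), with DESeq2 size factors (1.84, adjusted p = 0.0729) and with a mean of at least 50 counts (2.06, adjusted p = 0.0605), the sign turned with the dominant share as a covariate (-0.84), and the call was kept in 2 of 12 refits without a library, those without replicate 3 of the untreated or replicate 2 of the nanoceria group of space with gravity.

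Of 8 clock-linked outputs, 6 were tested and 1 was called, Nampt, the enzyme that makes the NAD precursor and is driven by CLOCK and ARNTL through E-boxes. In space with gravity Nampt held 337, 686 and 110 CPM without nanoceria and 619, 219 and 131 CPM with it (the last from 11 counts), against 51.1, 106 and 81.8 and then 23.3, 142 and 21.5 CPM on land. It was 2.32 ± 0.68 higher than on land on the log2 scale (edgeR adjusted p = 0.0325), and 1.79 ± 0.67 in space without gravity (adjusted p = 0.110), a value that passed with no filter on low counts (adjusted p = 0.0265) and without replicate 2 of land with nanoceria (0.0455). The value in space with gravity was 1.04 (adjusted p = 0.802) with the dominant share as a covariate, and its call was kept in 4 of 12 refits without a library, with log2 fold changes of 1.88 to 3.08 and adjusted p-values of 0.0155 to 0.112. Those 4 left out replicate 3 of the untreated group of space with gravity, replicate 2 or 3 of its nanoceria group, or replicate 2 of land with nanoceria. The background of called genes for both Rora and Nampt was the 14% given above.

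In the remaining lists nothing was called in any averaged comparison. Of 10 genes that set the stability of PER and CRY proteins, 9 were tested, and the smallest p-values were those of 2 kinases. Csnk1e, which phosphorylates PER, had a log2 fold change of -1.29 ± 0.43 in space with gravity against land (edgeR adjusted p = 0.0505), with 211, 56.1 and 134 CPM in land with nanoceria as the highest group. Csnk2a1, the catalytic subunit of casein kinase II, had 1.65 ± 0.58 in space without gravity against land (adjusted p = 0.0935). Both cold-inducible RNA-binding proteins, Cirbp and Rbm3, which rise in cooled cells and act on clock transcripts, were tested, and the smallest p of either was 0.242 (Rbm3 with nanoceria, -0.43 ± 0.35). Of 6 glucocorticoid-responsive genes, which report a hormone able to reset the clock, 5 were tested. Tsc22d3 had -2.01 ± 0.62 in space without gravity against land (edgeR adjusted p = 0.0646), and Sgk1 had -1.04 ± 0.46 with nanoceria (adjusted p = 0.752).

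**Figure D5:**
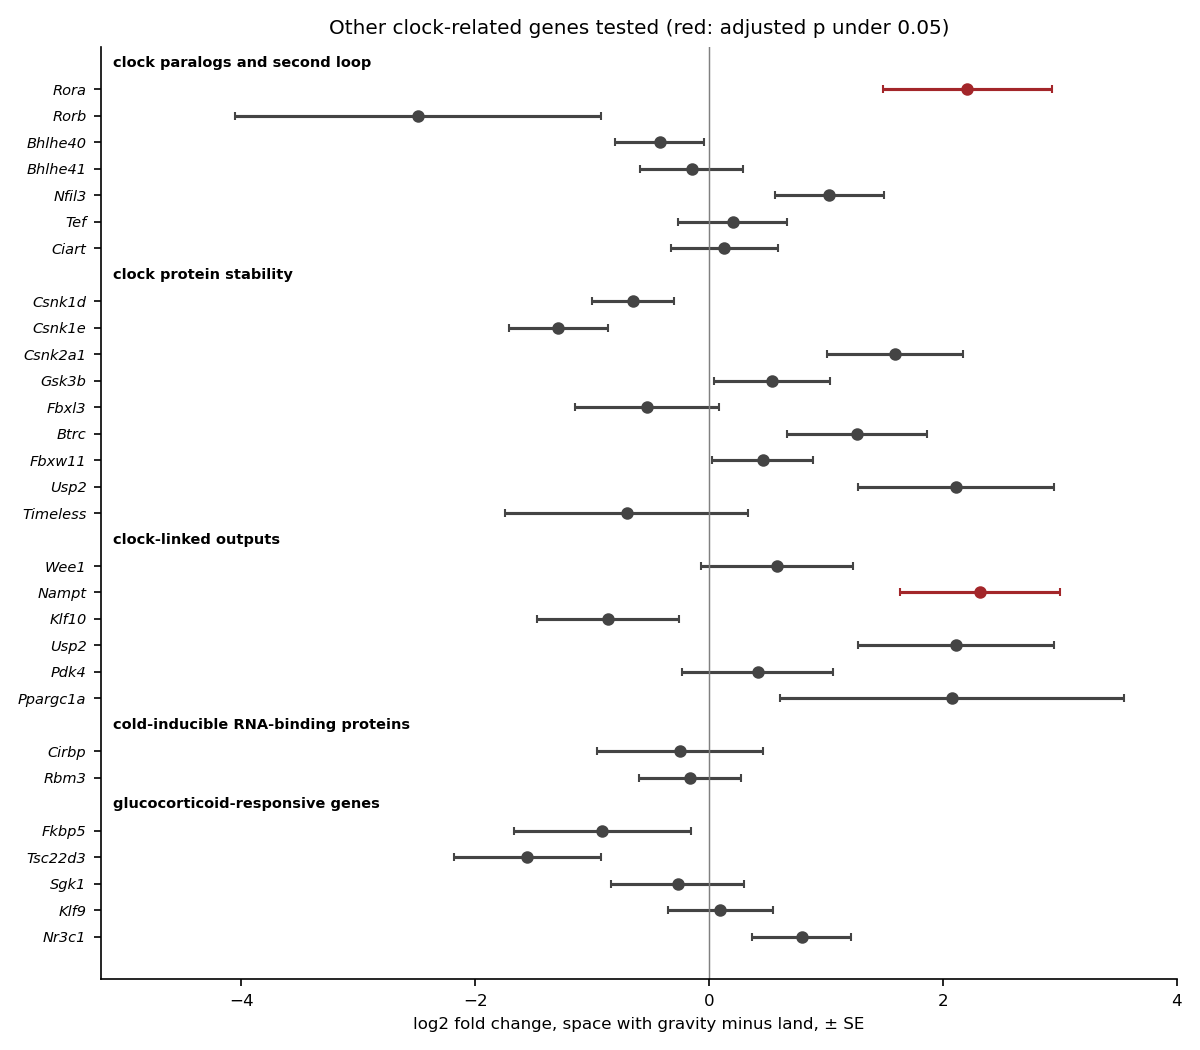
Log2 fold change with its standard error, space with gravity minus land, for the tested genes of the 5 further clock-related lists. Usp2 belongs to 2 lists and is drawn in both, and Rora (2.21) and Nampt (2.32) are the values past the adjusted threshold.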

How the data were processed

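Per the labels' protocols, a mirVana PARIS kit was used for extraction, and NEBNext Ultra libraries were made from polyadenylated RNA. The deposited values were raw counts per gene, 1 file per library. The submitters' processing notes name CASAVA, Trimmomatic 0.36.29, STAR, Subread, featureCounts and the build GRCm38.p6, with no settings. Strand use and the treatment of multimapping reads were not given in the sources used here. The labels give 3 experiment units per class, but replicate numbers follow the order of the records only.

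edgeR 4.0.16 (R 4.3.3) was used for the tests. filterByExpr, given the 6 groups, left 11558 genes, which were scaled by TMM and fitted in 1 robust quasi-likelihood model of group means over all 18 libraries, with 12 residual degrees of freedom. Benjamini-Hochberg adjustment ran over all tested genes. Standard errors of edgeR values were derived, as the absolute log2 fold change over the square root of the test's F statistic. They need not match the p-value exactly. The model code was tested on simulated counts. CPM are counts over the TMM effective library size. Ratios add 0.5 to each count where a gene is compared within a library.

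The 10 genes and the other lists were chosen with earlier results of these data known. All 10 are reported. From the other lists, the genes past the threshold in an averaged comparison are named, or the 2 with the smallest p where none passed. Of markers, Myod1, Des, Tnnt3, Acta1, Pdgfra and Dcn had the smallest p, none past the threshold. For genes of like pattern, the 2 with the highest Spearman rho among 4927 genes with a mean log2 CPM of at least 3 are named. Alternatives were DESeq2 size factors, the DESeq2 1.42.0 test, other count filters, fewer libraries and 2 treatments of the dominant genes.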

Additional observations from a re-analysis of the deposited data

How the results depend on the processing

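No paired analysis was possible because no label ties libraries of different groups to each other. Of 275 refits of single log2 fold changes under settings other than leaving out a library, 248 kept sign and side of the threshold, 18 changed sign, 4 lost a call and 5 gained one. Of 540 refits without a library, the numbers were 487, 47, 4 and 2. These numbers cover the 10 clock genes, and no clock gene value that changed sign was past the threshold in the reported fit. Outside the 10, the called value of Rora in space with gravity against land turned to -0.84 with the dominant share as a covariate. That share differed by regime, so the covariate and the regime comparisons cannot be told apart. The causes were not tested.

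Counts of called clock genes moved as follows. For space with gravity against land, 1 became 0 with DESeq2 size factors, no low-count filter, the dominant share as a covariate or the compared groups alone, and ran from 0 to 2 without a library. For space without gravity against land, 0 became 2 with no filter and 3 with DESeq2. In the 9 single-group comparisons 0 became 6 with no filter. For any difference among the groups, 2 became 1 with DESeq2 size factors, 4 with no filter and 1 without the smallest library. With no filter, called genes in space without gravity against land were 1466 of 25194 against 607 of 11558. Counts over all genes for space with gravity against land were 1613, but 2691 with DESeq2, 1072 with the compared groups alone and 1 with the covariate, and for space without gravity 1524, 387 and 6. For nanoceria and gravity withdrawn in space, 0 became 214 and 229 with no filter and 1 and 11 with DESeq2. Without single libraries the 2 comparisons with land ran down to 459 (without replicate 1 of space with gravity and nanoceria) and 82 (without replicate 1 of land and no nanoceria).

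Signs turned as follows, as log2 fold changes. With the dominant share as a covariate, space without gravity against space with gravity gave 0.014 for Per2, 0.91 for Per3, 0.65 for Arntl, -0.39 for Cry1 and -0.56 for Per1, and space with gravity against land gave 0.72 for Cry2 and 0.91 for Per1. Per1 in the latter comparison was 0.0798 with no filter and 0.00033 with the dominant genes removed. For Arntl, gravity withdrawn in space gave 0.027 with DESeq2 size factors, 0.0040 without the smallest library and 0.013 with DESeq2. In space without gravity against land, DESeq2 size factors and the DESeq2 test gave -0.045 and -0.038 for Nr1d2, -0.114 and -0.099 for Per1 and -0.070 and -0.065 for Nr1d1.

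Ranges that crossed 0 when a library was left out were, for nanoceria, -0.66 to 0.43 for Per2, -1.95 to 0.44 for Per3 and -0.035 to 0.23 for Nr1d1. For gravity withdrawn in space they were -0.45 to 0.30 for Per2, -2.28 to 0.25 for Per3, -0.27 to 0.54 for Clock, -0.43 to 0.30 for Arntl, -0.40 to 0.52 for Cry1 and -0.90 to 0.48 for Per1. For space with gravity against land they were -1.07 to 0.56 for Per2, -1.14 to 0.43 for Cry2, -3.16 to 0.82 for Per3, -0.86 to 0.53 for Arntl, -0.40 to 0.38 for Per1 and -0.29 to 0.13 for Nr1d1. For space without gravity against land they were -1.06 to 0.40 for Per2, -0.94 to 0.48 for Arntl and -0.87 to 0.41 for Per1.

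Depth limits Per2 (0 to 34 counts), Per1 and the smallest library most. The order of levels per length was the same with DESeq2 size factors. Such factors cannot change the order of genes within a library, so this is no test of the order.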

Other observations

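Several transcripts followed single clock genes across the 17 larger libraries. These are descriptions picked as the highest of 4927 candidates, over libraries that share depth, scaling and the share of dominant genes. Clock was most like Eif3a, a subunit of the translation initiation factor eIF3 (Spearman rho 0.892, Pearson r 0.824), and Ggps1, which makes geranylgeranyl diphosphate (rho 0.848). Nr1d2 was most like R3hdm1 (rho 0.863) and Dnajb9, a chaperone of the endoplasmic reticulum (rho 0.850). Per3 was most like the kinase gene Wnk1 (rho 0.841) and Nfib (rho 0.824), Per1 like Atxn2 (rho 0.826) and Amotl2 (rho 0.799), and Per2 like Tgfb2 (rho 0.811) and Dpy19l1 (rho 0.743). Cry2 was most like Tnks1bp1 (rho 0.821) and Ube3b (rho 0.740), and Cry1 like Fzd7 and Lamtor5 (rho 0.721 each). Nr1d1 was most like Ino80 (rho 0.757) and Mff (rho 0.723), Arntl like Pdlim2 (rho 0.718) and Lbh (rho 0.708), and Dbp like Ppil3 (rho 0.676) and Hipk2 (rho 0.667). None of these genes belongs to the clock lists.

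On land with nanoceria Cry2 counts exceeded Cry1 counts in all 3 libraries. The log2 ratio of Cry1 to Cry2 counts was -5.61, -4.59 and -1.47 there (lowest, median and highest), and in the untreated land group it was 0.0802, 0.110 and 1.14. In space without gravity it lay between -0.617 and 2.32, and in the larger libraries of space with gravity between -0.935 and 1.02. The land libraries with nanoceria were thus the lowest of the larger libraries, with 0 to 9 counts of Cry1 behind them. Their lowest ratio came from replicate 3, with 0 counts of Cry1. The median came from replicate 1, which held 228 counts of Cry2, or 82.9% of its group. The share of gene pairs with such a split was not counted.

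Among markers, no list had a called gene in an averaged comparison. Of the myoblast markers, Myod1, which starts the muscle program, had -3.43 ± 1.59 in space with gravity against land (edgeR adjusted p = 0.145), and Des, the muscle intermediate filament, had -0.98 ± 0.47 in space without gravity against land (adjusted p = 0.205). Of the myotube markers, Tnnt3 had -2.53 ± 1.06 with nanoceria (adjusted p = 0.752), and Acta1 had -1.49 ± 0.68 in space without gravity against land (adjusted p = 0.184). Of the fibroblast and adipocyte markers, Pdgfra had -1.78 ± 0.78 in space without gravity against land (adjusted p = 0.168), and Dcn had -1.30 ± 0.66 in space with gravity against land (adjusted p = 0.185). The part of such cells in the clock values was not tested.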
